A study of Mus musculus with 24 samples.

Results

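A group of 8 long noncoding transcripts that carry small nucleolar RNAs (snoRNAs) were examined: Gas5, Snhg1, Snhg3, Snhg5, Snhg6, Snhg8, Snhg12 and Zfas1. They were chosen by gene symbol, and all 8 had a row in both deposited tables, among 19134 genes found in both. The cells were mouse E14 embryonic stem cells on gelatin, with no feeder cells named, in serum with leukaemia inhibitory factor, and poly(A) RNA was sequenced. In control medium there were 4 libraries each of WT, Smad2_KO1 and Smad2_KO2 cells. The same 3 genotypes, again with 4 libraries each, were kept for 12 h with 200 nM INK128, an inhibitor of the kinase mTOR that puts the cells into the state called paused. Both knockout lines are labelled as knockouts of Smad2, a transcription factor of Nodal and activin signalling, and the labels do not say how many clones a line holds. The tables give 1 mean normalized count, 1 log2 change and its standard error (SE) per gene and condition, so no value of a single library can be shown, and they do not say which knockout libraries entered, so KO1 and KO2 cannot be told apart. The tables do not name the numerator. Changes are taken as knockout against wild-type cells, since the targeted gene Smad2 had log2 values of -0.35 in the authors' deposited control table and -0.63 in the paused table. With the opposite reading every direction would turn around.

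snoRNAs guide the chemical modification and cutting of ribosomal RNA, in the nucleolus. Box C/D snoRNAs guide methylation of the ribose, and box H/ACA snoRNAs guide the change of uridine to pseudouridine. Most are cut out of introns of a host transcript, and in the hosts described here the spliced RNA codes for no known conserved protein. Several such hosts start with a terminal oligopyrimidine (TOP) tract, a C followed by further pyrimidines, which is best known from ribosomal protein mRNAs and places translation under the control of mTOR. Spliced Gas5 is loaded on ribosomes and removed by nonsense-mediated decay, which needs translation, so it accumulates when growth or mTOR activity stops. This is the origin of its name, growth arrest specific. In human embryonic stem cells GAS5 has been linked to the maintenance of Nodal signalling.

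The first bases of the hosts are shown because mTOR is known to act on this class through a pyrimidine tract at the start. Not every window below holds one, and a miss says only that none was found near the annotated start. The windows are those of RefSeq on GRCm38.p6 (mm10 coordinates, the build named in the submitters' processing notes), and 7 of the 8 hosts matched. Snhg6 had no entry. Each line gives 20 bases before the annotated start and the first 30 bases of the transcript, and capitals mark the longest run of C and T between 10 bases before and 30 bases after the start.
Gas5 upstream start, chr1:161034581-161034630, plus strand: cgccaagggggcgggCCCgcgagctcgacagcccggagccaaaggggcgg
Gas5 downstream start, chr1:161035146-161035195, plus strand: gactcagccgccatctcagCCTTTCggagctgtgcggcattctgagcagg
Snhg1, chr19:8723467-8723516, plus strand: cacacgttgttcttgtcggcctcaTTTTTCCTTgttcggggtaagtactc
Snhg3, chr4:132353657-132353706, minus strand: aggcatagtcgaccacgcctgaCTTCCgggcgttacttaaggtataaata
Snhg5, chr9:88522868-88522917, minus strand: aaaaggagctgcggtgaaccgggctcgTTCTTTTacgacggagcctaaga
Snhg8, chr3:123508307-123508356, minus strand: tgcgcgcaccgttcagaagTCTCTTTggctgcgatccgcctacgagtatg
Snhg12, chr4:132308658-132308707, plus strand: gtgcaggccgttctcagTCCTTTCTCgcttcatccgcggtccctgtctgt
Zfas1, chr2:167062914-167062963, plus strand: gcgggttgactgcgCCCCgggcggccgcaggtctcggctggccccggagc

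A C at the annotated start followed by at least 4 more pyrimidines was found in 2 of the 8 windows, the downstream start of Gas5 and that of Snhg8. Of all 32851 windows in the table, 2.51% met this rule, and of 76 windows of cytosolic ribosomal protein genes 18.4% did. When the C could lie up to 5 bases from the annotated start, 4 of 8 windows met it, with Snhg3 and Snhg12 added, against 18.3% of all windows and 42.1% of those of ribosomal protein genes. The longest run of C and T reached 9 bases in Snhg1 and Snhg12, 7 in Snhg5 and Snhg8, 6 at the downstream start of Gas5, 5 in Snhg3, 4 in Zfas1, and 3 at the upstream start of Gas5. The median over all windows was 5. The letters TATAAA, searched on the transcribed strand in the 250 bases before the start, were present for Snhg5 and Snhg8, and in 7.59% of all windows.

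The same annotation places 29 snoRNAs within the spans of the 8 hosts: 8 each in Gas5 and Snhg1, 4 in Snhg12, 3 in Zfas1, 2 each in Snhg3 and Snhg5, and 1 each in Snhg6 and Snhg8. Of these, 17 held TGATGA (the letters of box C) within 14 bases of the 5′ end together with CTGA (box D) near the 3′ end, as 303 of 1507 snoRNAs of GENCODE M21 did. A further 5, all in Snhg3, Snhg8 and Snhg12, were longer than 110 bases and held ACA at most 5 bases from the 3′ end, as 630 of the 1507 did. No match in the other 7 says only that these letters were not in these windows. Below are 4 snoRNAs whose own rows are described later, from GENCODE M21 on GRCm38, with box C, box D or ACA in capitals.
Snord12 of Zfas1, chr2:167065276-167065365, plus strand: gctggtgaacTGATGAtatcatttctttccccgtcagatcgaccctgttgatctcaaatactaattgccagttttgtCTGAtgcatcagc
Snord47 of Gas5, chr1:161038082-161038158, plus strand: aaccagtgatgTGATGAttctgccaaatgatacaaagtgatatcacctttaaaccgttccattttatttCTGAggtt
Snord87 of Snhg6, chr1:9942463-9942549, minus strand: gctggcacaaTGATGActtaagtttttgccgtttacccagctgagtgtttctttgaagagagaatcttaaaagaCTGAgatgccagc
Snora73a of Snhg3, chr4:132352775-132352979, minus strand: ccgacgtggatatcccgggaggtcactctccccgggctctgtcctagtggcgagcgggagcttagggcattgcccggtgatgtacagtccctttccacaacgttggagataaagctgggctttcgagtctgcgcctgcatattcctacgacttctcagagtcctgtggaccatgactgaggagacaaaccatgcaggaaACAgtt

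Loss of Smad2 in control cells went with less RNA of most of these hosts. In the authors' deposited control table, 7 of the 8 fell (DESeq2 adjusted p under 0.05), and all 8 values lay below 0. Of all 19778 genes tested in that table, 21.9% were called lower and 19.5% higher, 41.4% in all. Calls were more frequent among abundant genes: 31.7% of genes with a mean at or above that of Snhg6, the lowest mean count among the hosts, were called lower. The median change of the 8 hosts in the authors' deposited table was -0.26, against -0.003 for all genes in both tables and -0.05 for the 10958 of them above 5 ppm (mean counts scaled so that each table sums to 1000000, then averaged over both tables; 474 of these genes were under 5 ppm in 1 table). The falls were small, from 11.5% in Snhg1 to 29.0% in Zfas1. In such bulk RNA, fewer cells of a kind cannot be told apart from less RNA per cell. Nor can other differences between the lines be told apart from loss of Smad2.

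Among the hosts of box C/D snoRNAs, Zfas1, which lies head to head with Znfx1, had the lowest value. Zfas1 had a mean of 1796 normalized counts and fell by 0.49 (log2) in the authors' deposited control table (SE 0.11, adjusted p 9.58e-05). Taking the mean as that of 4 wild-type and 8 knockout libraries, this corresponds to 2226 normalized counts in wild type and 1581 in knockout cells. Snhg5, the host of the Snord50 pair, had a mean of 3686 and fell by 0.44 in the authors' deposited table (SE 0.08, adjusted p 1.98e-06), which corresponds to 4464 and 3297 normalized counts. The 95% intervals of both changes, -0.72 to -0.27 and -0.60 to -0.27, overlapped widely, so these data do not order them.

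Gas5 had a mean of 4961 normalized counts in the authors' deposited control table. It fell by 0.21 there (SE 0.09, adjusted p 0.0420), which corresponds to 5466 normalized counts in wild type and 4709 in knockout cells. The call of Gas5 was close to the threshold. Snhg1 had a mean of 4665 and fell by 0.18 in the authors' deposited table (SE 0.06, adjusted p 0.0151). Snhg6, the host of Snord87, had a mean of 243 and fell by 0.28 in the authors' deposited table (SE 0.10, adjusted p 0.0182).

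Of the hosts of box H/ACA snoRNAs, Snhg8 and Snhg12 were called in control cells and Snhg3 was not. Snhg8, which holds Snora24, fell by 0.28 from a mean of 881 in the authors' deposited control table (SE 0.08, adjusted p 0.00279). Snhg12, which holds both kinds, fell by 0.23 from a mean of 1485 (SE 0.09, adjusted p 0.0201) in the authors' deposited table. Snhg3, the host of the Snora73 pair, known for its role in ribosomal RNA cutting, had a value of -0.06 (SE 0.09, adjusted p 0.620) in the authors' deposited control table, with a mean of 1222. Its 95% interval, -0.25 to 0.12, includes falls as large as those of Gas5 or Snhg12.

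In paused cells 7 of the 8 hosts fell as well in the authors' deposited table, and all 8 values again lay below 0. Called lower there were 22.0% of all 19979 genes, called higher 20.5%, and called in either direction 42.6%. Among genes at or above the mean of Snhg6 in that table, 32.2% were called lower. The median of the 8 changes was -0.31 in the authors' deposited paused table, against -0.01 for all genes. The 6 hosts that fell in both conditions were Gas5, Snhg5, Snhg6, Snhg8, Snhg12 and Zfas1.

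Gas5 fell by 0.36 in the authors' deposited paused table (SE 0.05, adjusted p 2.47e-12), the smallest SE and the smallest p of the 8. From a mean of 4097 normalized counts this corresponds to 4808 in wild type and 3742 in knockout cells, a fall of 22.2%. Zfas1 fell by 0.41 (SE 0.08, adjusted p 1.63e-06) in the authors' deposited table, from a mean of 4331. Snhg5 fell by 0.28 (SE 0.06, adjusted p 1.20e-05) and Snhg6 by 0.34 (SE 0.10, adjusted p 0.00443) in the authors' deposited paused table. Snhg1 was not called in the authors' deposited paused table, with a value of -0.08 (SE 0.08, adjusted p 0.392) at a mean of 7643.

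Of the hosts of box H/ACA snoRNAs in paused cells, Snhg3 fell by 0.34 in the authors' deposited table (SE 0.09, adjusted p 4.27e-04). Its mean there was 417 normalized counts, which corresponds to 484 in wild type and 383 in knockout cells. Snhg8 fell by 0.29 (SE 0.06, adjusted p 5.93e-06) and Snhg12 by 0.18 (SE 0.05, adjusted p 0.00323) in the authors' deposited paused table. The calls in both conditions rest on small changes: none of the 8 hosts changed 1.5-fold in either table, and none was called against a change of at most 1.2-fold. In control cells, setting the summed counts of both genotypes equal shifted all changes by 0.06 and left Snhg5, Snhg8 and Zfas1 called, while in paused cells all 7 calls stayed. When each statistic was divided by the spread of the middle of all genes' statistics (2.76 in control and 2.80 in paused cells), none of the 8 hosts stayed called in either condition, and 1.48% and 2.25% of all genes did. Gas5 in paused cells then had an adjusted p of 0.186, the lowest of the hosts.

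**Figure D1:**
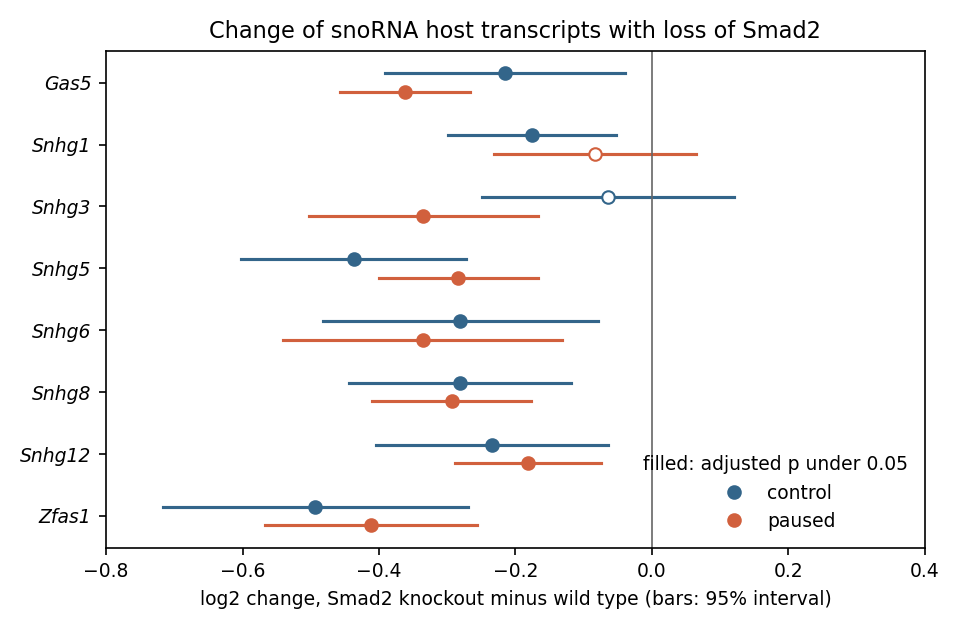
Log2 change of each host, knockout minus wild type, in control (blue) and paused (orange) cells, with two-sided 95% intervals from the authors' standard errors; filled points have an adjusted p under 0.05. All 16 points lie below 0, and the open points are Snhg1 in paused and Snhg3 in control cells.

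Whether the knockout change differed between conditions was tested for each gene as the paused change minus the control change over the combined SE, two-sided. None of the 8 hosts passed a Benjamini-Hochberg adjusted p under 0.05, where 1.44% of 19134 genes did. An unadjusted p under 0.05 was found for 1 of the 8, and for 12.9% of all genes. This was Snhg3, with a difference of -0.27 (SE 0.13, p 0.0334, Benjamini-Hochberg adjusted p 0.328). The 95% interval of its difference ran from -0.52 to -0.02. Gas5 had a difference of -0.15 (SE 0.10, 95% interval -0.35 to 0.05, Benjamini-Hochberg adjusted p 0.594). Snhg5 had one of 0.15 (SE 0.10, 95% interval -0.05 to 0.36, Benjamini-Hochberg adjusted p 0.574). Differences were below 0 for 4 hosts and above 0 for 4. The call of Snhg1 in control cells alone and of Snhg3 in paused cells alone therefore does not show that their knockout changes differed.

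The mean levels of 4 hosts, Zfas1, Snhg1, Snhg3 and Snhg5, stood further apart between the 2 tables than between genotypes, in both directions. The tables were normalized separately and hold no library values, so each mean was set to ppm of its table's sum, and the ratios have no error and no test. Zfas1 had 39.0 ppm in control and 97.8 ppm in paused cells, 2.51-fold more, a higher ratio than 98.0% of genes above 5 ppm on average over both tables, a set that also holds genes under that level in 1 of them. Snhg1 went from 101 to 173 ppm, 1.70-fold, above 90.4% of genes. Snhg6 had 5.27 and 6.25 ppm, 1.19-fold. The other 5 hosts had lower means in the paused table.

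Snhg3 was lowest, with 26.5 ppm in control and 9.41 ppm in paused cells, or 35.5% of the control level, and 0.812% of genes above 5 ppm had a lower ratio. Snhg5 went from 80.0 to 36.8 ppm, 46.0% of the control level, with 2.57% of genes below it. Gas5 (85.9%), Snhg8 (86.6%) and Snhg12 (85.8%) had paused levels close to each other and within the middle of genes above 5 ppm, whose ratio lay between 0.546 and 2.00 from the 5th to the 95th percentile. The median ratio of the 8 hosts was 0.862, against 1.04 for genes above 5 ppm, of which 44.3% had a lower level in the paused table. The median describes the hosts poorly, since their ratios span from 0.355 to 2.51.

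The order of the ratios was the same for levels worked out for wild-type cells alone, with 0.403 for Snhg3, 0.435 for Snhg5, 0.846 for Snhg12, 0.878 for Snhg8, 0.923 for Gas5, 1.23 for Snhg6, 1.65 for Snhg1 and 2.45 for Zfas1, apart from the 3 middle hosts, whose ratios lie close together. The summed level of the 8 hosts was 411 ppm in the control and 459 ppm in the paused table. Per kilobase of the longest spliced GENCODE transcript, Gas5 (162 ppm per kilobase) and Snhg1 (143) led in control cells, followed by Snhg5 (79.7), Zfas1 (52.8), Snhg3 (45.7), Snhg8 (36.2), Snhg12 (21.0) and Snhg6 (6.45). In paused cells Snhg1 led with 243 ppm per kilobase, then Gas5 with 139 and Zfas1 with 132, while Snhg5 stood at 36.7 and Snhg3 at 16.2. With no spread over libraries it cannot be said which neighbours in these orders differ.

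**Figure D2:**
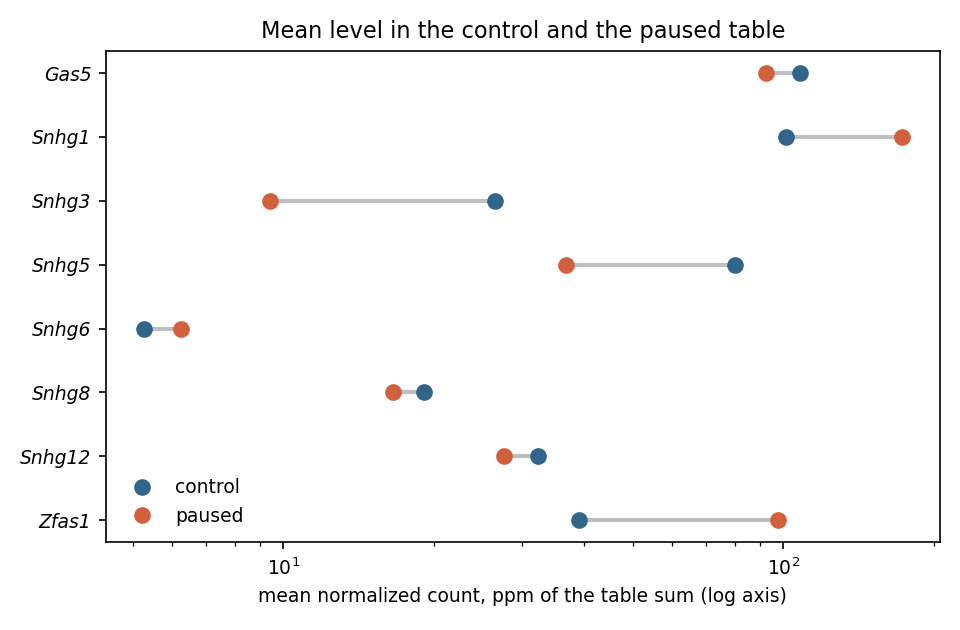
Mean normalized count of each host as ppm of the sum of its table, on a log axis, in control (blue) and paused (orange) cells. Zfas1 and Snhg1 lie to the right in paused cells and Snhg3 and Snhg5 to the left; no library values were available for error bars.

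The tables also list rows for 10 of the 29 snoRNAs inside the hosts, in Gas5, Snhg1, Snhg3, Snhg6, Snhg12 and Zfas1, which allows a host and the RNA within it to be compared. In poly(A) libraries such rows can hold reads of unspliced or partly spliced host RNA as well as of longer snoRNA forms, and the counts do not tell these apart. Of the 10, 4 (Snord47, Snora73b, Snord87 and Snord12) lie outside every exon of the spliced GENCODE transcripts of their host. All 10 had a lower mean in the paused table, with a median ratio of 0.480. The 80 other snoRNA rows had a median of 0.833, and 57 of them were lower. In 9 of the 10 the ratio was below that of the host.

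Zfas1 and Snord12 parted furthest. The ratios are those of means set to ppm of each table's sum, so they differ slightly from ratios of the normalized counts. Zfas1 had a ratio of 2.51. Snord12, with means of 124 and 66.8 normalized counts in the authors' deposited tables, had a ppm ratio of 0.562. Relative to its host, Snord12 stood at 22.4% of its control value. Snord22 in Snhg1 had a ratio of 0.905 against 1.70 for the host. Snord87 in Snhg6 had 0.624 against 1.19, with means of 29.9 and 17.9 normalized counts in the authors' deposited tables. The 4 snoRNAs of Snhg12 had ratios of 0.396 (Snora16a), 0.424 (Snora44), 0.426 (Snord99) and 0.503 (Snora61) against 0.858 for Snhg12.

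Within Snhg3, host and snoRNAs had ratios of similar size. Snora73a had 0.336 and Snora73b 0.457 against 0.355 for Snhg3. The Snora73 copies are nearly the same in sequence, so reads may be split between them and their separate values are uncertain. Snord47 in Gas5 had a ratio of 0.643, below the 0.859 of its host.

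**Figure D3:**
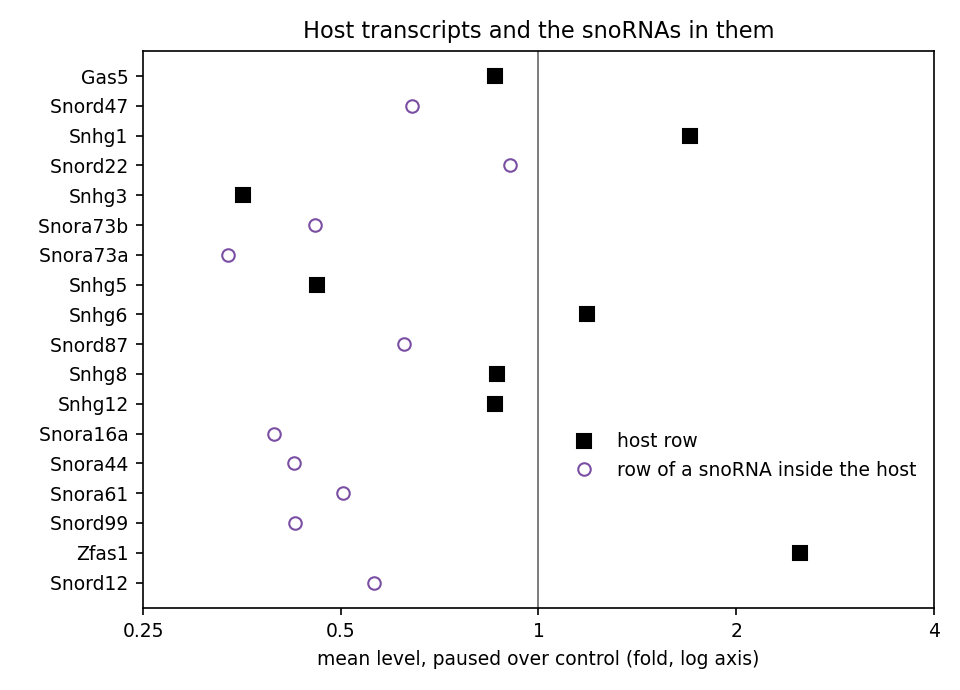
Ratio of the mean level in the paused table to that in the control table, on a log axis, for each host (black squares) and for the snoRNAs inside it that have a row of their own (open circles). All 10 circles lie below 1, and Zfas1 with Snord12 shows the widest gap.

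The knockout changes of the snoRNA rows pointed mostly the same way as those of the hosts. All 10 values were below 0 in the authors' deposited control table, where 2 fell (21.9% of all genes did). These were Snord22, by 0.50 (SE 0.15, adjusted p 0.00358), and Snora16a, by 0.51 (SE 0.16, adjusted p 0.00420), both in the authors' deposited table. In paused cells 9 of 10 values were below 0 and 7 fell in the authors' deposited table (22.0% of all genes did), with Snord99 the exception in sign at 0.23 (SE 0.21, adjusted p 0.392). Snord47 fell by 0.63 (SE 0.20, adjusted p 0.00614) and Snora73b by 0.36 (SE 0.09, adjusted p 5.79e-04) in the authors' deposited paused table. Of the other 5, Snora73a had an adjusted p of 0.0123, and Snord87 (0.0369), Snord22 (0.0444), Snora61 (0.0453) and Snord12 (0.0491) were close to the threshold in the authors' deposited paused table. No other setting was run for the snoRNA rows. These rows and their hosts come from the same libraries and can share reads, so they are not independent of the host values.

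Snhg12 and Snhg3 lie close to each other on chromosome 4 (Snhg12 at chr4:132308678-132311024 on the plus strand, Snhg3 at chr4:132351933-132353686 on the minus strand, RefSeq GRCm38.p6), with Trnau1ap and Rcc1 between them. Rcc1, which codes for the exchange factor of the GTPase Ran, had a paused-to-control ratio of 0.430, near the 0.355 of Snhg3, and Trnau1ap had 0.687. Phactr4, on the other side of Snhg3, had 1.25. Rab42, which lies 5296 bases from Snhg12 and had means of only 39.7 and 32.0 normalized counts in the authors' deposited tables, was the neighbour whose knockout change differed between conditions (-1.09, SE 0.32, Benjamini-Hochberg adjusted p 0.0434). In control cells Rcc1 fell by 0.25 and Trnau1ap by 0.26 in the authors' deposited table (adjusted p 0.00234 and 0.00331), while Phactr4 was not called there (0.06). In paused cells Trnau1ap fell by 0.25 and Rcc1 by 0.14, and Phactr4 rose by 0.16, in the authors' deposited table (adjusted p 8.11e-05, 0.0319 and 2.39e-04).

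Zfas1 (chr2:167062934-167065862, plus strand) overlaps Znfx1 on the opposite strand by 82 bases. Znfx1 rose by 0.17 in the authors' deposited control table (SE 0.06, adjusted p 0.00620), against the fall of Zfas1, and had a paused-to-control ratio of 1.01 against 2.51. Gas5 (chr1:161034601-161038539, plus strand) overlaps Zbtb37 on the opposite strand by 264 bases. Zbtb37 had values of -0.01 and 0.04 in the authors' deposited tables and was called in neither. Snhg6 (chr1:9942025-9944118, minus strand) overlaps the low-count Mcmdc2 by 1582 bases. The libraries were directional, but the strand setting of the counting is not given in the sources used here, so reads of these overlapping pairs may not be separated.

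Snhg1 (chr19:8723487-8726326, plus strand) lies 118 bases from Slc3a2, which codes for the heavy chain of amino acid transporters. Slc3a2 fell by 0.23 in both of the authors' deposited tables (adjusted p 8.46e-06 in control and 5.27e-07 in paused cells), and its paused-to-control ratio was 0.771, where that of Snhg1 was 1.70. Snhg5 (chr9:88521052-88522897, minus strand) and Snhg8 (chr3:123507552-123508336, minus strand) lie further from their neighbours, at 25123 bases from Zfp949 and 121562 bases from Mettl14.

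A list of 15 other noncoding hosts of small RNAs was set beside the 8. Of these, 13 were in both tables. The counts of this and the following lists stand against 21.9% of all genes called lower and 19.5% higher in the control condition. In the paused condition these shares were 22.0% and 20.5%. Among genes with a mean at or above that of Snhg6, 31.7% and 32.2% were called lower. In the authors' deposited control table, 9 of the 13 fell and 1 rose, with a median of -0.29, and in the paused table, 5 fell and 1 rose, with a median of -0.23. Snhg4 fell by 0.51 and 0.60, Epb41l4aos by 0.61 and 0.46, and Dancr by 0.29 and 0.37 in the authors' deposited control and paused tables. Snhg7 fell by 0.27 and 0.23 and Mir17hg by 0.31 and 0.32 in the authors' deposited control and paused tables. Mir17hg is by its name the host of a microRNA and was not shown here to hold a snoRNA, but it is part of these counts. Snhg18 fell by 0.90 and Snhg10 by 0.64 in the authors' deposited control table, and neither was called in the paused table (-0.74 and -0.12). Snhg11, a host known mainly from neurons, rose by 0.32 and 0.35 in the authors' deposited tables. For the difference none of the 13 was called (1.44% of 19134 genes were), also at an unadjusted p under 0.05 (12.9%). Their paused-to-control ratios ranged from 0.504 (Dancr) to 1.76 (Snhg20), and 9 of 13 had a higher mean in paused cells.

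Coding hosts of snoRNAs, taken as protein-coding genes with a snoRNA inside them on the same strand in GENCODE M21, had medians nearer 0. Of 221 in the authors' deposited control table, 76 fell and 29 rose, with a median of -0.07, and in the paused table, 75 fell and 35 rose, with a median of -0.06. The counts of those that fell are near the share among genes at or above the mean of Snhg6. Cytosolic ribosomal protein genes, the best known TOP mRNAs, had a median of -0.13 in the authors' deposited control table, where 39 of 85 fell and 3 rose, and -0.11 in the paused table, where 56 fell and 3 rose. The 3 that rose were copies of other ribosomal protein genes with which they may share reads, Rpl39l (1.06 and 1.05), Rpl3l (1.06 and 0.95) and Rpl10l (0.42 and 0.45), in the authors' deposited control and paused tables. The median paused-to-control ratio of all 85 ribosomal protein genes was 1.02.

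Among genes for proteins that bind or assemble snoRNAs, those that were called were lower. In the authors' deposited control table, 7 of 17 fell and 0 rose, with a median of -0.12, and in the paused table, 10 fell and 0 rose, with a median of -0.11. Naf1, an assembly factor of H/ACA particles, fell by 0.38 and 0.41, and Nhp2, an H/ACA core protein, by 0.27 and 0.20 in the authors' deposited control and paused tables. Fbl, the methyltransferase of C/D particles, fell by 0.28 in the authors' deposited paused table (adjusted p 1.55e-05) and had a value of -0.27 in the control table (adjusted p 0.0722). Of these 17 genes 15 had a lower mean in paused cells, with a median ratio of 0.794, and Nop10 was lowest at 0.381. Fbl and Nop10, like Snhg20 above, were singled out after their values were seen.

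Genes of nonsense-mediated decay, the route that removes spliced Gas5, went in both directions. Of 16, 6 fell and 2 rose in the authors' deposited control table, and 4 fell and 4 rose in the paused table. Smg1, the kinase of the pathway, rose by 0.34 and 0.23 and Upf2 by 0.20 and 0.36, whereas Magohb and Rbm8a, partners in the exon junction complex, fell by 0.86 and 0.74 and by 0.43 and 0.19 in the authors' deposited tables. Smg9, a regulator of Smg1, fell by 0.38 and 0.31, and Magoh, a close copy of Magohb that may share reads with it, by 0.33 and 0.30 in the authors' deposited control and paused tables. Smg5 rose by 0.11 in the authors' deposited paused table and was not called in the control table (-0.05). Of 12 genes that control TOP mRNAs and translation downstream of mTOR, 7 fell and 2 rose in the authors' deposited control table, and 4 fell and 2 rose in the paused table. Larp1, which binds TOP sequences, fell by 0.34 and 0.27 in the authors' deposited tables, and Eif4ebp1, a repressor of cap-dependent translation, rose by 0.14 and 0.29. Tia1 and Tial1, RNA-binding proteins linked to TOP mRNAs, fell by 0.20 and 0.24 and by 0.19 and 0.14, and the S6 kinase gene Rps6kb1 by 0.14 and 0.23 in the authors' deposited control and paused tables. Rps6kb2 rose by 0.20 in the authors' deposited control table and was not called in the paused table (0.07), and Larp4 rose by 0.07 in the paused table and was not called in the control table (0.01). The change differed between conditions for 2 of the 12, where 1.44% of 19134 genes were called. These were Eif4ebp2 (0.22, Benjamini-Hochberg adjusted p 4.63e-04) and Eif4e (0.19, Benjamini-Hochberg adjusted p 0.0371).

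**Figure D4:**
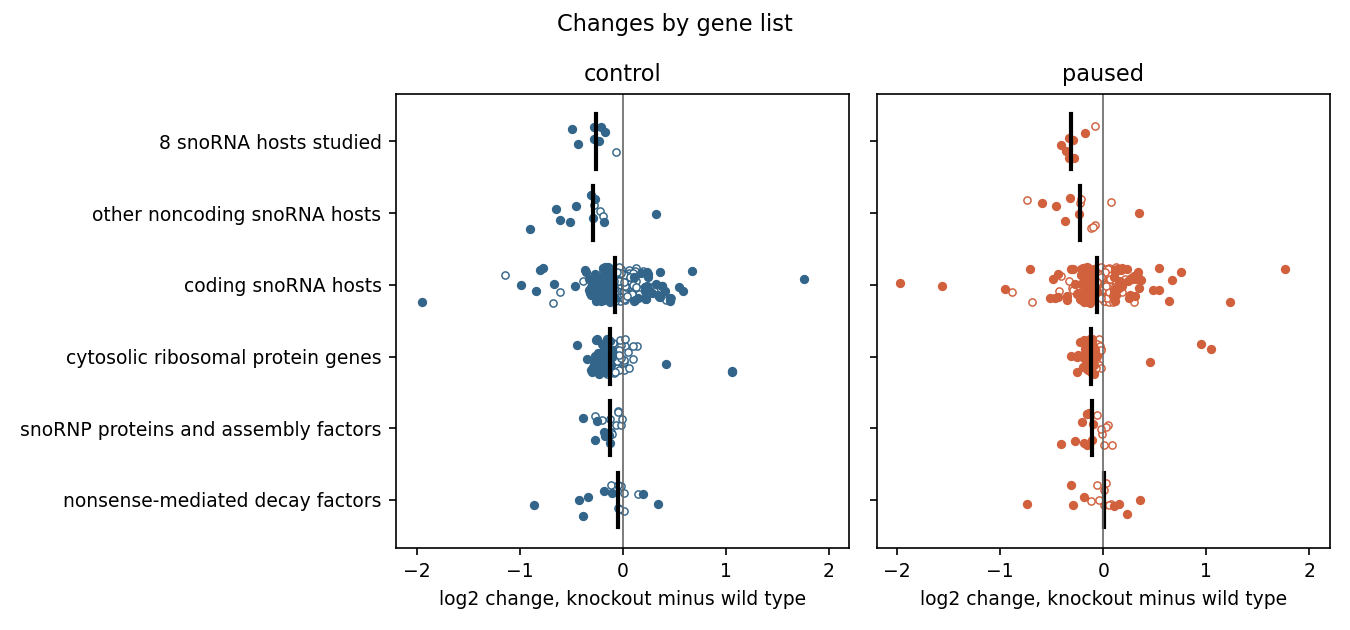
Log2 change, knockout minus wild type, of each gene in 6 lists, in control (left) and paused (right) cells; filled points have an adjusted p under 0.05, black bars are list medians, and vertical scatter only separates the points. The 8 hosts have medians of -0.26 and -0.31, and the other noncoding hosts -0.29 and -0.23.

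Gas5 was first found with other transcripts of growth-arrested fibroblasts, and 5 genes listed as growth-arrest-specific were compared with it. Gas7 rose by 0.51 and 0.26, Gas6 fell by 0.21 and 0.35, and Pmp22 fell by 0.49 and 0.76 in the authors' deposited control and paused tables, while Gas1 and Gas2 were called in neither. Over 3 values (control change, paused change and log2 paused-to-control ratio), the 5 genes nearest to Gas5 among 10158 genes at least as abundant as the lowest host were Zfp423, Dcbld2, Adarb2, Pot1b and Tesk2, at distances of 0.03 to 0.06. None of the 7 other hosts was among them; Snhg8 stood nearest at a distance of 0.10 and Zfas1 furthest at 1.57.

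Markers of the labelled cell type were abundant: Pou5f1, Sox2, Nanog, Zfp42, Esrrb and Dppa5a each had a mean of at least 18775 normalized counts in the authors' deposited tables. Nanog rose by 0.32 and 0.18 in the authors' deposited control and paused tables. Pou5f1 fell by 0.18 in the authors' deposited control table (adjusted p 0.00630) and had a value of -0.08 in the paused table (adjusted p 0.0924), and the other 4 were called in neither. All 6 primitive endoderm markers rose in both of the authors' deposited tables, with medians of 1.21 in control and 0.95 in paused cells, at summed levels of 105 and 145 ppm and none at 0. Sox17 rose by 2.19 and 1.28 and Gata6 by 1.76 and 1.35 in the authors' deposited control and paused tables. Of 6 fibroblast markers 3 (Col1a1, Col1a2 and Col3a1) fell in each of the authors' deposited tables (summed levels 21.9 and 22.9 ppm), and of 6 trophoblast markers 1 (Hand1) rose and 1 (Cdx2) fell in each (357 and 426 ppm). Their part in the host changes was not tested.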

How the data were processed

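Per the labels, poly(A) RNA of 24 samples in 6 groups of 4 was sequenced from directional libraries. FastQC, Trim Galore, HISAT2, featureCounts, DESeq2 and the build mm10 are named in the submitters' processing notes; versions, annotation and strand setting are not given in the sources used here. Per the file headers, the authors deposited for each condition a mean normalized count (a signal averaged over libraries), a log2 change with its SE on the log2 scale, a Wald statistic (a score), a p-value and an adjusted p-value. The statistic equalled the change over its SE, and Benjamini-Hochberg adjustment of the p-values gave the deposited adjusted values to within 0.852%. Calls are those of these tests over all genes. Depth per library is unknown, and the SEs are the only measure of precision. Whether the samples are separate cultures is not stated, so p-values may measure technical spread. Even with separate cultures, the SEs and intervals measure spread among libraries of the same few lines. Other differences between the knockout lines and the wild-type cells cannot be told apart from loss of Smad2.

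The test of the difference was adjusted over 19134 genes. This test, the null hypothesis of at most 1.2-fold and the scaled statistic were tried on simulated data. The scaled statistic was tried with a smaller spread than these data have, and the other alternatives were not simulated. Wild-type and knockout levels were worked out from the mean and the change, with 4 and 8 libraries. Symbols were matched to RefSeq GRCm38.p6 (92.6% of genes) and GENCODE M21. Python 3.11.15, numpy 2.4.6, scipy 1.17.1 and pandas 2.3.3 were used. The hosts and gene lists were chosen with earlier results of these data known. All 8 hosts are named, with their nearest or overlapping genes, at most 4 called genes per list by size of change, any further gene where a count was 5 or fewer, and the 5 genes nearest to Gas5. The values of some genes are not reported here. Alternatives were an adjusted p under 0.01, at least 1.5-fold, a null hypothesis of at most 1.2-fold, equal summed counts, a scaled statistic, a minimum of 5 ppm (in the table tested or, for the difference, on average over both) and other scalings of the level ratio.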

Additional observations from a re-analysis of the deposited data

How the results depend on the processing

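No paired analysis was possible because the tables hold no library values; leaving out a replicate could not be run for the same reason. The 7 calls in control cells became 3 (Snhg5, Snhg8 and Zfas1) at an adjusted p under 0.01 (30.9% of all genes called), 3 with equal summed counts (39.8%), and 0 at 1.5-fold or more (15.0%), against a null hypothesis of at most 1.2-fold (12.2%), and with the statistic scaled to a middle spread of 1 (1.48%, 293 genes). The 7 calls in paused cells became 0 under those last 3 settings (14.7%, 12.1% and, for 450 genes, 2.25% of all genes called) and stayed at 7 at an adjusted p under 0.01 (32.3%) and with equal summed counts (41.1%). With a minimum of 5 ppm both counts were 7 (51.6% and 53.0% of the genes above it). For the difference between conditions the count was 0 under each alternative run. The 14 called changes of single hosts lost their call in 50 of 84 combinations of change and setting. Of these settings only equal summed counts alters a change itself, so under the others the direction could not turn. With equal summed counts each of the called changes stayed below 0. The median ratio of 0.862 became 0.829 as deposited, 0.825 centred on the median gene, 0.900 for wild-type levels with 8 of 12 knockout libraries, and 0.890 with 4 of 8. Zfas1 stayed between 2.40 and 2.51 and Snhg3 between 0.340 and 0.403. The cause of these shifts was not tested.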
